A study of Mus musculus with 8 samples.

Results

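The genes examined here encode the receptors for glutamate, GABA, glycine and acetylcholine, read in the dorsal forebrain of mouse embryos that lost the Hedgehog pathway inhibitor Sufu. Members were the protein-coding genes whose symbols name a subunit of an AMPA, kainate, NMDA, delta, GABA-A, glycine or nicotinic receptor, or a metabotropic glutamate, GABA-B or muscarinic receptor. There were 73 such genes among the 43629 genes listed. The choice used names and biotype only, but earlier results of these data were known when it was made. RNA was profiled in 4 Sufu-cKO samples, in which Emx1-cre/+ recombined 2 floxed Sufu alleles (Sufu-fl/fl), and in 4 control samples labelled Sufu-fl/fl or Sufu-fl/+. All embryos were male, at E12.5 (the E stands for embryonic day), on a mixed background with C57BL/6J. Emx1-cre acts in the progenitors of the dorsal telencephalon and their descendants, so other cells in the dissected tissue keep their floxed alleles. No label names the embryo or litter behind a sample, so the p-values reflect sample-to-sample spread that could be partly technical.

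In the mature brain, ionotropic receptors for glutamate and acetylcholine open cation channels and excite neurons, while those for GABA and glycine open chloride channels. The metabotropic, GABA-B and muscarinic receptors instead signal through G proteins. In the embryonic cortex many of these receptors are present on progenitors and young neurons before synapses form, and GABA and glycine can then depolarise cells because their chloride content is high.

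The libraries held 27514357 to 34878838 counts each, and every pair of samples within a group differed by more than counting noise. Sufu was at 44.8, 44.5, 37.4 and 35.9 counts per 1000000 (CPM) in Sufu-cKO samples, against 106, 125, 112 and 105 CPM in controls, a log2 fold change of -1.46 (adjusted p = 1.069e-06). Values per sample are given throughout in the order Mut_295, Mut_317, Mut_337 and Mut_340 for Sufu-cKO, and Cont_294, Cont_345, Cont_365 and Cont_370 for control. All 7 genes of the dorsal telencephalon marker list passed the filter on low counts, as the tissue label requires. Their summed level was 1460 to 1712 CPM in Sufu-cKO samples and 1793 to 2053 CPM in controls, with 4 of them lower and 1 (Tbr1, a gene of deep-layer neurons) higher in Sufu-cKO.

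Promoter windows are shown for 4 receptor genes, a pair that was higher in Sufu-cKO and a pair that was lower, because they span the range from dense to sparse CpG. Each covers 250 bases before to 50 after the annotated start, from RefSeq on GRCm38.p6, read 5′ to 3′ on the strand of the gene, and capitals mark the CpG dinucleotides. Grik4, whose product is a kainate receptor subunit, has the window chr9:42944322-42944621 (minus strand). Chrna7, for the alpha7 nicotinic subunit, has chr7:63212477-63212776 (minus strand). Gabre, for the epsilon subunit of GABA-A receptors, has chrX:72274672-72274971 (minus strand), and Gabrg1, for the gamma1 subunit, has chr5:70842568-70842867 (minus strand).
Grik4: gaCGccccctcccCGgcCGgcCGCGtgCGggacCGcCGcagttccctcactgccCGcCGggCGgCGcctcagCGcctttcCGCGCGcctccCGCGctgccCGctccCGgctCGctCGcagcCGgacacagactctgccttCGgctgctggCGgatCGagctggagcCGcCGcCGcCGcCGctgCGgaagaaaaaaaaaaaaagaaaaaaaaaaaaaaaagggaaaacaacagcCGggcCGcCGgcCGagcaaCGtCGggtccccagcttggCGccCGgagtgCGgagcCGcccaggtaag
Chrna7: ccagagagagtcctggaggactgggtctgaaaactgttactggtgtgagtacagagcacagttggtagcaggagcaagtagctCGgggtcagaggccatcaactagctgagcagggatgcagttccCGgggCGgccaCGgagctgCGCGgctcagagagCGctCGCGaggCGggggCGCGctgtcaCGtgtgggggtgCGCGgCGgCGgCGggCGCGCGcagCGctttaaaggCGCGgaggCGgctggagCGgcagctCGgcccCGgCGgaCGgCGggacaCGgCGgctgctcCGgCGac
Gabre: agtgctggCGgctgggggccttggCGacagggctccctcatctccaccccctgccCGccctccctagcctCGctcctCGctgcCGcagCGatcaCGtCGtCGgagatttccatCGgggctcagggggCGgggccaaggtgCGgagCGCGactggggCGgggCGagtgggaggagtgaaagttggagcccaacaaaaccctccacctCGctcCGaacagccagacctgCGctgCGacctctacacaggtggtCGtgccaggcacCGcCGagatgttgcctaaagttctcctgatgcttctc
Gabrg1: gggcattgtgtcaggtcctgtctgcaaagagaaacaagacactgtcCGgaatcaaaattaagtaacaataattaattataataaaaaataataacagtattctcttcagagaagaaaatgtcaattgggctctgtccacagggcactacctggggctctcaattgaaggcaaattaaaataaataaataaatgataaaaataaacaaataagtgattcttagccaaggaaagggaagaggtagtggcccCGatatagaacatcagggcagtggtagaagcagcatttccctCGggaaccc
The windows of Grik4, Chrna7, Gabre and Gabrg1 held 42, 35, 24 and 3 CpG dinucleotides, in that order, against a median of 7 over all 32851 windows of the table. RefSeq windows were found for 52 of the 73 receptor genes, 60 windows in all. The 44 windows of receptors that passed the filter on low counts had a median of 14.5 CpG, and the 16 windows of those that did not had a median of 3.5. Of the 10 receptors that were higher in Sufu-cKO, only 4 had a window, with a median of 25.5 CpG. All 4 that were lower had a window, with a median of 17.5. Among the windows not shown, those of Chrm2 and Gabrg3 (both higher) held 16 and 13 CpG. Those of Chrm3 and Grik2 (both lower) held 11 and 26. Both strands were also searched for the GLI site GACCACCCA, which was in 0 of the 60 receptor windows and in 0.253% of all windows. The E-box CAGCTG was in 7 receptor windows and in 16.3% of all windows. The E-box CAGATG, recognised by neurogenins, was in 3 receptor windows and in 17.2% of all windows, and neither E-box was in the 8 windows of receptors that changed. A missing match says only that these letters are not in these 300 bases.

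Most receptor genes were read at low levels in this early tissue. A few genes made up most of each family other than the muscarinic, where the levels were spread more evenly. Levels of different genes were compared per length, as counts per kilobase of merged exons per 1000000 TMM-scaled counts (RPKM). Of the 73 genes, 20 averaged at least 1 RPKM over the 8 samples and 3 averaged at least 10 RPKM. The highest was Gabbr1, the GABA-binding subunit of the GABA-B receptor, at 18.3 ± 1.09 RPKM in Sufu-cKO and 16.0 ± 1.03 RPKM in control (SD, n = 4 each, as for all means below). Grik5, an accessory kainate subunit with high affinity, was at 14.5 ± 2.59 RPKM in Sufu-cKO and 14.5 ± 1.54 RPKM in control. Gria2, the AMPA subunit whose edited form blocks calcium entry, was at 10.9 ± 2.01 RPKM in Sufu-cKO and 12.1 ± 2.60 RPKM in control. None of these 3 genes was called between genotypes.

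**Figure D1:**
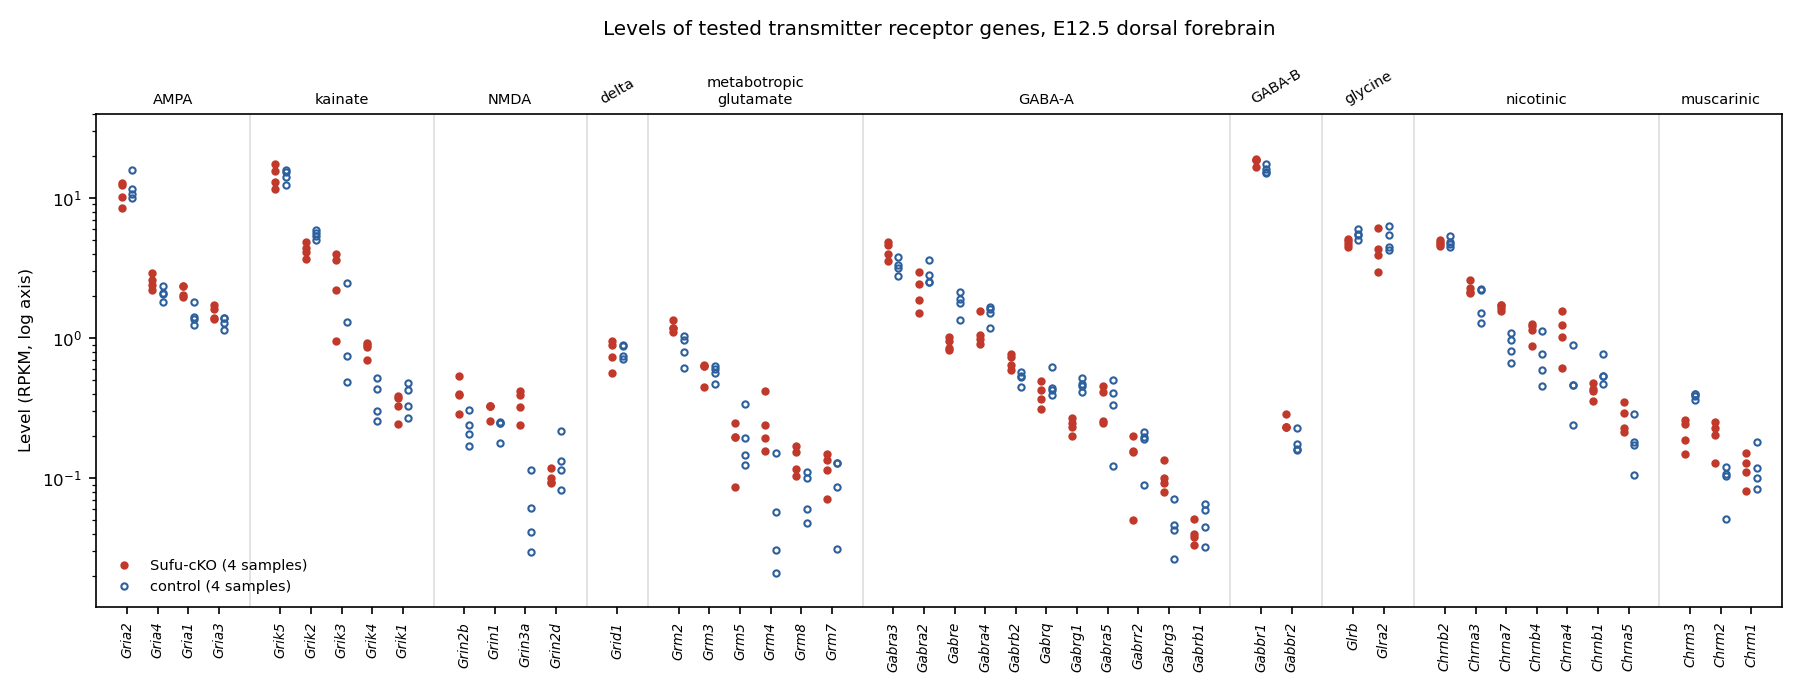
Level of 45 tested receptor genes by family, in RPKM on a log axis, with 1 point per sample for Sufu-cKO and for control. Gabbr1, Grik5 and Gria2 stand highest, with means of at least 10 RPKM, and most NMDA, metabotropic and muscarinic genes lie under 1 RPKM.

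There were 49 receptor genes that passed the filter on low counts and were tested, and 24 that were not. A gene with low counts can pass through the group in which it is high, so counts over tested genes describe those genes only. Among the 49, the edgeR quasi-likelihood test called 10 as higher and 4 as lower in Sufu-cKO at an adjusted p under 0.05, which is 28.6% of them. Over all 15382 tested genes, 11.0% were called, 5.34% as higher and 5.64% as lower. The median log2 fold change was 0.23 over the 49 receptor genes and 0.0071 over all tested genes. Sample values did not overlap between genotypes for 17 of the 49 (34.7%), 13 higher and 4 lower in Sufu-cKO. Over all tested genes this share was 16.2%, with 8.33% higher and 7.86% lower. The 17 were 13 of the called genes, all but Grin2b, and 4 that were not called: Gabrb2, Gabbr2, Grm2 and Grin1. Of the 14 called genes, 6 averaged at least 1 RPKM and 8 were below it. Grin2b and Chrm2, both called, share exonic bases with a gene on the opposite strand, which makes their values uncertain where counting ignored strand. Since the tissue is mixed, fewer cells of a type and less RNA per cell cannot be told apart.

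**Figure D2:**
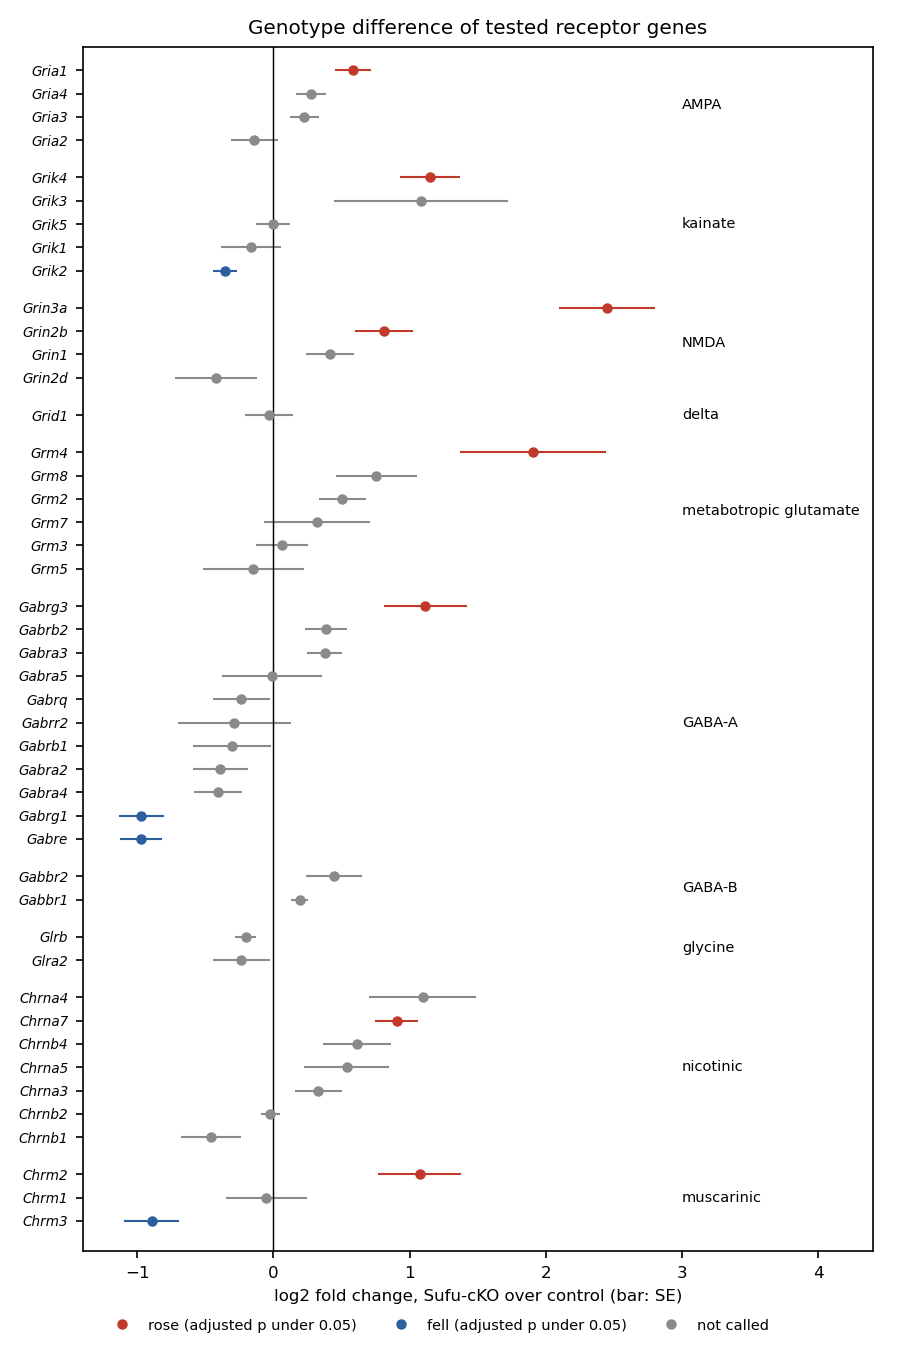
Log2 fold change (Sufu-cKO over control) of 45 tested receptor genes, ordered within each family, with bars of 1 standard error. The 8 genes shown that rose lie in 7 families and Grin3a is farthest right at 2.45, while the 4 that fell are Grik2, Gabrg1, Gabre and Chrm3.

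Marker genes of cell populations in the tissue were read beside these genes, against the 11.0% called over all tested genes. Of 12 markers of young neurons, 6 rose and none fell, and their summed level was 2950 to 3190 CPM in Sufu-cKO samples and 2379 to 2784 CPM in controls. Of 8 progenitor markers, 5 rose, with sums of 3678 to 3853 CPM in Sufu-cKO and 2667 to 2914 CPM in control. The other progenitor markers, Hes1, Hes5 and Fabp7, had log2 fold changes of -0.20, -0.19 and -0.34 and were not called. None of 10 markers of GABAergic neurons and their progenitors was called, and their sums were 77.4 to 228 CPM in Sufu-cKO and 69.3 to 163 CPM in control. Their median log2 fold change was 1.19, from -1.08 (Lhx6, SE 0.40) to 1.96 (Dlx2, SE 0.94). Choroid plexus markers were lower, 3 of the 6 tested, at 87.3 to 278 CPM in Sufu-cKO against 502 to 767 CPM in control. Of the smaller populations, 3 of 5 microglial markers, 2 of 5 endothelial, 1 of 5 pericyte and 1 of 6 Cajal-Retzius markers fell. Diencephalic markers had 1 of 3 tested higher (Tcf7l2) and 1 lower (Lhx9), and 0 of 6 mesenchymal markers were called, although the Sufu-cKO sample Mut_337 stood at 1496 CPM for their sum against 679 to 719 CPM in the other Sufu-cKO samples. The skeletal muscle list summed to at most 1.06 CPM in any sample, with its defining genes Myod1 and Myf5 at 0 in all. The part of these populations in the receptor results was not tested.

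Among the AMPA receptor subunits, which carry fast excitatory transmission, only Gria1 was called. Gria1 (ENSMUSG00000020524, chr11:57011387-57330244) encodes GluA1, a subunit that forms calcium-permeable channels when Gria2 product is absent. Its level was 14.2, 11.8, 12.3 and 14.3 CPM in Sufu-cKO samples, against 7.48, 8.53, 10.9 and 8.24 CPM in controls. Every Sufu-cKO sample was above every control, the nearest being Mut_317 and Cont_365. The log2 fold change was 0.58 (SE 0.13, adjusted p = 0.01308). Gria2 read 191, 157, 133 and 201 CPM in Sufu-cKO samples and 181, 167, 156 and 246 CPM in controls, with overlapping groups (log2 fold change -0.14, SE 0.17, adjusted p = 0.7205). Gria3 and Gria4 had log2 fold changes of 0.23 and 0.28 and were not called. Of the summed RPKM of the family, Gria2 made up 63.4% ± 3.74 in Sufu-cKO and 70.9% ± 4.54 in control, and Gria1 12.8% ± 0.935 in Sufu-cKO and 8.80% ± 2.26 in control. The sum itself was 17.2 ± 2.34 RPKM in Sufu-cKO and 16.9 ± 2.58 RPKM in control.

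The kainate receptor genes split in direction. Grik4 (ENSMUSG00000032017, chr9:42518135-42944493) encodes GluK4, a high-affinity subunit that needs a partner of the low-affinity group to form a channel. It was read at 5.30, 5.49, 5.13 and 4.13 CPM in Sufu-cKO samples, against 2.57, 1.79, 1.52 and 3.11 CPM in controls. The groups did not overlap, and Grik4 rose by a log2 fold change of 1.15 (SE 0.22, adjusted p = 0.005245). Grik2 (ENSMUSG00000056073, chr10:49099460-49788766) encodes GluK2, a low-affinity subunit that can form channels on its own. Its values were 48.7, 58.7, 54.4 and 64.8 CPM in Sufu-cKO samples, against 70.5, 74.4, 78.8 and 66.3 CPM in controls. All Sufu-cKO samples lay below all controls, but Mut_340 was close to Cont_370, and Grik2 fell by 0.35 on the log2 scale (SE 0.09, adjusted p = 0.02072). The Grik2 call was lost without Cont_345 or without Cont_365, where the adjusted p was at most 0.0653.

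Grik3, another low-affinity kainate subunit, had a log2 fold change almost as large as that of Grik4, at 1.08 (SE 0.64, adjusted p = 0.3987), and was not called. Its values were 35.5, 8.52, 19.6 and 32.4 CPM in Sufu-cKO samples and 6.72, 4.37, 11.7 and 22.3 CPM in controls. The samples of both groups spread widely and overlapped. Summed GABAergic markers were 228, 77.4, 128 and 216 CPM in the same Sufu-cKO samples and 79.8, 69.3, 96.2 and 163 CPM in the same controls. Within each genotype the samples took the same order for Grik3 as for the GABAergic sum, and the part of GABAergic cells in the Grik3 level was not tested. For Grm4 and Grin3a, drawn beside the same sum, the samples did not take that order in either genotype. Grik1 (log2 fold change -0.17) and Grik5 (log2 fold change -0.0009, SE 0.12) were not called.

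**Figure D3:**
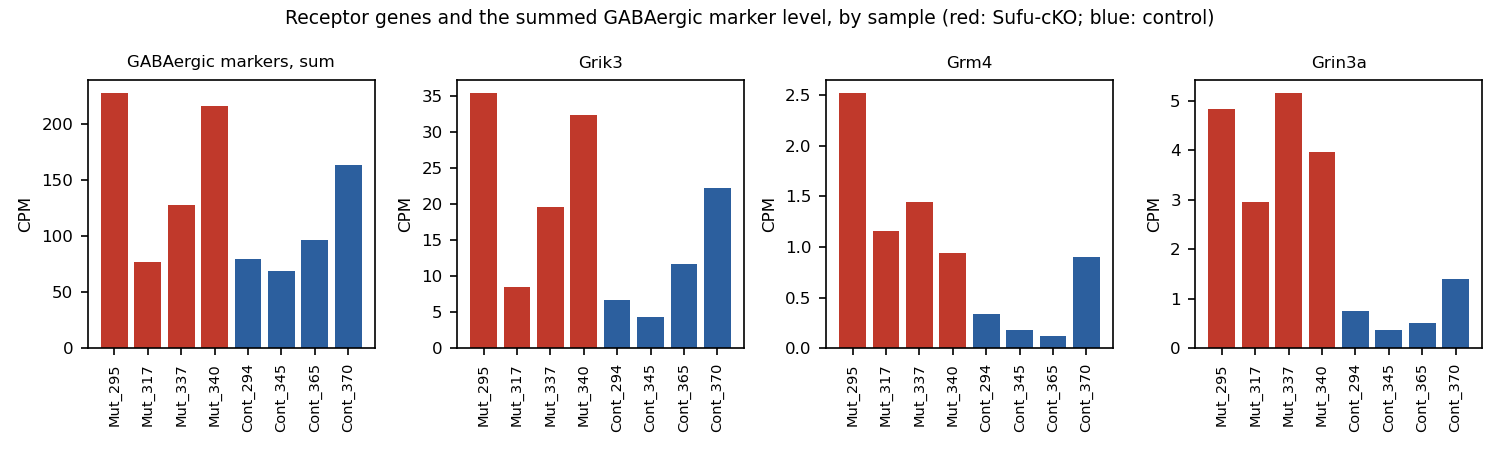
Bars give the CPM in each sample for the sum of 10 GABAergic markers and for Grik3, Grm4 and Grin3a, with Sufu-cKO samples in red at the left and controls in blue at the right of each panel. Grik3 spans 8.52 to 35.5 CPM in Sufu-cKO and 4.37 to 22.3 CPM in control, and its tallest bar in each genotype is that of the sample with the highest marker sum. The bars of Grm4 and Grin3a do not follow the full order of the marker sum in either genotype.

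NMDA receptors, which need both glutamate and glycine or D-serine and pass calcium, held the tested receptor gene with the largest fold change. Grin3a (ENSMUSG00000039579, chr4:49661611-49845744) encodes GluN3A, a glycine-binding subunit that lowers calcium entry and is known for its high expression in the immature brain. It stood at 4.83, 2.96, 5.16 and 3.97 CPM in Sufu-cKO samples, against 0.755, 0.365, 0.505 and 1.41 CPM in controls. Even the lowest Sufu-cKO sample was above the highest control. Grin3a rose 5.46-fold (log2 fold change 2.45, SE 0.35, adjusted p = 0.001095), and kept its call when any 1 of the 8 samples was left out. Its share of the summed NMDA RPKM was 28.6% ± 6.32 in Sufu-cKO and 8.72% ± 5.08 in control.

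Grin2b (ENSMUSG00000030209, chr6:135713232-136173511) encodes GluN2B, the main glutamate-binding NMDA subunit of the embryonic brain. Its level was 7.12, 13.3, 9.96 and 9.82 CPM in Sufu-cKO samples, against 4.22, 5.94, 7.58 and 5.14 CPM in controls. Mut_295 was below Cont_365, so the groups overlapped, and the log2 fold change was 0.81 (SE 0.21, adjusted p = 0.02863). Of the 8 fits that left a sample out, the call held only without Mut_295 or without Cont_365, and the adjusted p reached 0.0817 in the others. Grin1, the obligatory subunit of all NMDA receptors, read 3.18, 3.17, 2.46 and 3.17 CPM in Sufu-cKO samples and 1.72, 2.44, 2.4 and 2.4 CPM in controls. Its groups did not overlap, yet the test did not call it (log2 fold change 0.42, SE 0.18, adjusted p = 0.1868). Grin2d, with a log2 fold change of -0.42, was not called, and Grin2a, Grin2c and Grin3b were too low to test. Summed over the family, the level was 1.20 ± 0.0406 RPKM in Sufu-cKO and 0.706 ± 0.0738 RPKM in control. Grin1, Grin2b and Grin2d share exonic bases with genes on the opposite strand. This sum and the share of Grin3a in it are therefore uncertain where counting ignored strand.

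Delta receptors bind glycine and D-serine and the synaptic organisers called cerebellins. Grid1 was not called, at 0.784 ± 0.176 RPKM in Sufu-cKO and 0.803 ± 0.0939 RPKM in control (log2 fold change -0.03, SE 0.18, adjusted p = 0.9451).

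Of the metabotropic glutamate receptor genes, 7 of 8 were tested and 1 was called. Grm4 (ENSMUSG00000063239, chr17:27422387-27513341) encodes mGlu4, which couples to inhibitory G proteins. It was read at 2.52, 1.16, 1.44 and 0.937 CPM in Sufu-cKO samples, against 0.343, 0.182, 0.126 and 0.904 CPM in controls. The groups were apart by a narrow margin, Mut_340 lying just above Cont_370, and the raw counts were only 29 to 76 in Sufu-cKO and 4 to 32 in control. Cont_345 and Cont_365 had 5 and 4 counts, under the filter's minimum count of 10, so Grm4 passed the filter through the Sufu-cKO samples. The log2 fold change was 1.90 (SE 0.53, adjusted p = 0.04625), and the call held in only 1 of the 8 fits that left a sample out, the one without Cont_370. The adjusted p reached 0.123 among those fits, and the call was also lost when genes with low counts were kept in (adjusted p = 0.0941).

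Grm2, an autoreceptor type that couples to inhibitory G proteins, was the highest of the family per length, at 1.21 ± 0.103 RPKM in Sufu-cKO and 0.849 ± 0.189 RPKM in control. All 4 of its Sufu-cKO samples were above the controls, but it was not called (log2 fold change 0.51, SE 0.17, adjusted p = 0.0872), whereas DESeq2 called it (adjusted p = 0.03918). Grm3, Grm5, Grm7 and Grm8 had log2 fold changes of 0.06, -0.15, 0.32 and 0.76 and were not called.

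**Figure D4:**
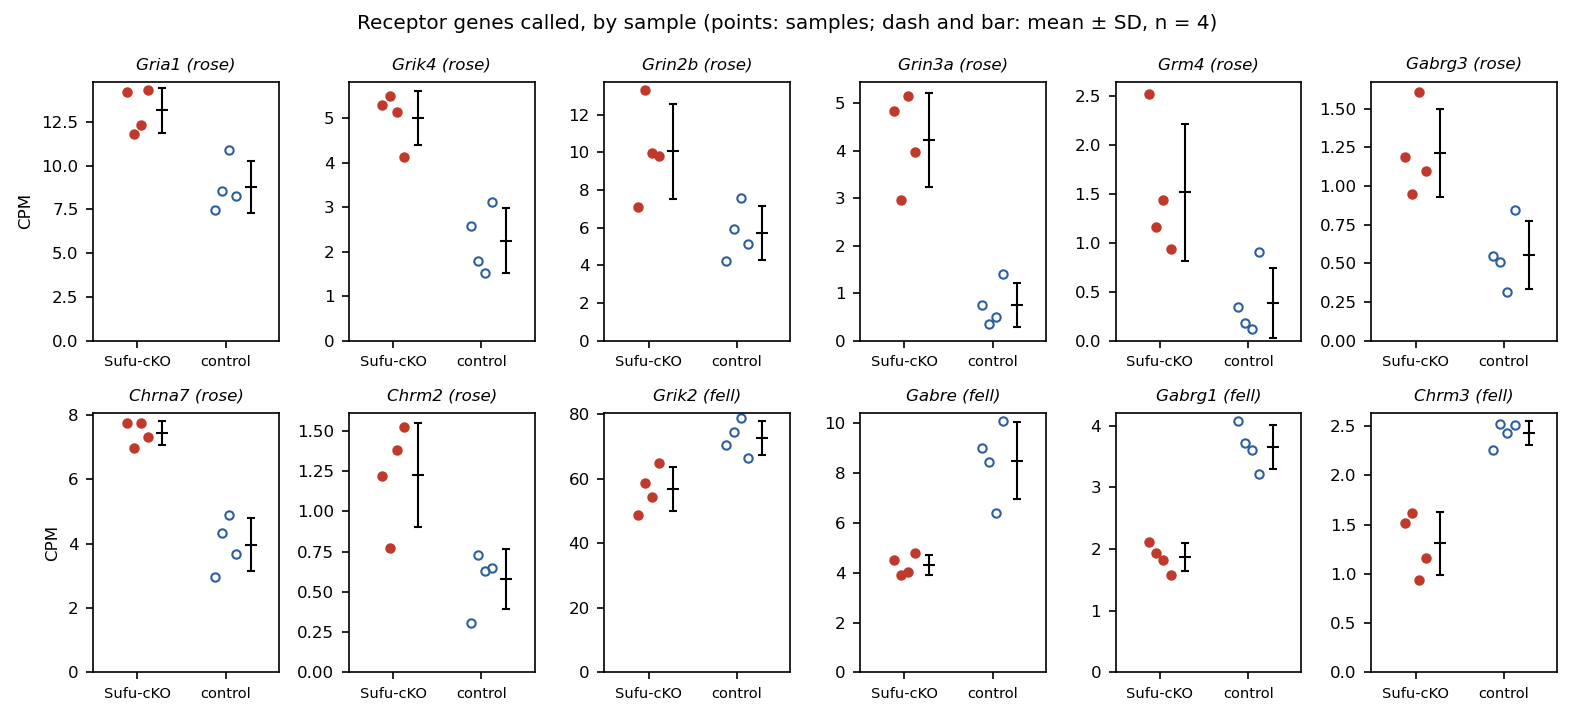
CPM in each sample for 12 receptor genes called between genotypes, 1 panel per gene, with Sufu-cKO points left of control points; a dash and bar give the mean ± SD of each group (n = 4). Groups are apart in every panel except that of Grin2b, where Mut_295 at 7.12 CPM lies below Cont_365 at 7.58 CPM.

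GABA-A receptors are pentamers that most often join alpha, beta and gamma subunits, and 3 of their 13 tested genes rose while 2 fell. Gabrg3 (ENSMUSG00000055026, chr7:56716465-57387188) encodes the gamma3 subunit. Its values of 1.19, 0.950, 1.61 and 1.10 CPM in Sufu-cKO samples were above the 0.549, 0.510, 0.316 and 0.847 CPM of controls. The groups did not overlap, though the level was low, and the log2 fold change was 1.11 (SE 0.31, adjusted p = 0.03542). Of the 8 fits that left a sample out, the call held without Mut_317 or without Cont_370, and the adjusted p reached 0.106 in the others.

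The genes that fell were those of the epsilon and gamma1 subunits. Gabre (ENSMUSG00000031340, chrX:72255999-72274803) encodes epsilon, a subunit found in few adult brain regions. It was read at 4.53, 3.91, 4.04 and 4.78 CPM in Sufu-cKO samples, against 9.02, 8.46, 6.41 and 10.1 CPM in controls. The groups were well apart, and Gabre fell by 0.97 on the log2 scale (SE 0.15, adjusted p = 0.001595). Gabrg1 (ENSMUSG00000001260, chr5:70751047-70842617) stood at 2.12, 1.94, 1.82 and 1.58 CPM in Sufu-cKO samples, against 4.08, 3.72, 3.60 and 3.22 CPM in controls. Every Sufu-cKO sample was below every control, and Gabrg1 also fell by 0.97 on the log2 scale (SE 0.16, adjusted p = 0.002459).

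Gabre made up 4.85% ± 0.399 of the summed GABA-A RPKM in Sufu-cKO and 10.6% ± 1.48 in control. The sum was 18.9 ± 1.99 RPKM in Sufu-cKO and 16.8 ± 1.46 RPKM in control. It includes genes that were not tested, among them Gabrp, at 1.18 RPKM in Mut_337 and 0.555 RPKM in Mut_340. The mean of Gabrp was 0.434 RPKM in Sufu-cKO and 0.0027 RPKM in control. Gabra4, Gabra5 and Gabrb1 share exonic bases with genes on the opposite strand, so the sum is uncertain where counting ignored strand. Gabra3, the most abundant alpha subunit gene here, was at 4.25 ± 0.604 RPKM in Sufu-cKO and 3.28 ± 0.435 RPKM in control and was not called (log2 fold change 0.38, SE 0.13, adjusted p = 0.08623), whereas DESeq2 called it (adjusted p = 0.04044).

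Many GABA-A genes sit in clusters in the genome. The fold changes of neighbours are given together for the clusters on chromosomes 5 and X, which hold the genes that fell. On chromosome 5 a cluster of 1387 kb runs Gabrg1, Gabra2, Gabra4 and Gabrb1. All 4 of its genes had negative log2 fold changes, -0.97, -0.39, -0.41 and -0.30 in that order, and Gabrg1 alone was called with all samples. Without Mut_340, Gabra4 was also called (log2 fold change -0.61, adjusted p = 0.02415). On chromosome X Gabre fell, while its neighbours Gabra3 and Gabrq had log2 fold changes of 0.38 and -0.24 and were not called. Gabrg3, which rose by 1.11 on the log2 scale, lies near Gabra5 on chromosome 7 (chr7:57407690-57510009). Of the other GABA-A genes, Gabra5 had a log2 fold change of -0.0077 (SE 0.37) and Gabrb2 one of 0.38 (SE 0.15, adjusted p = 0.1483), and neither was called. Gabra4 and Gabrb1 share exonic bases on opposite strands, and the strand setting of the counting is not given in the sources used here, so their values are uncertain.

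**Figure D5:**
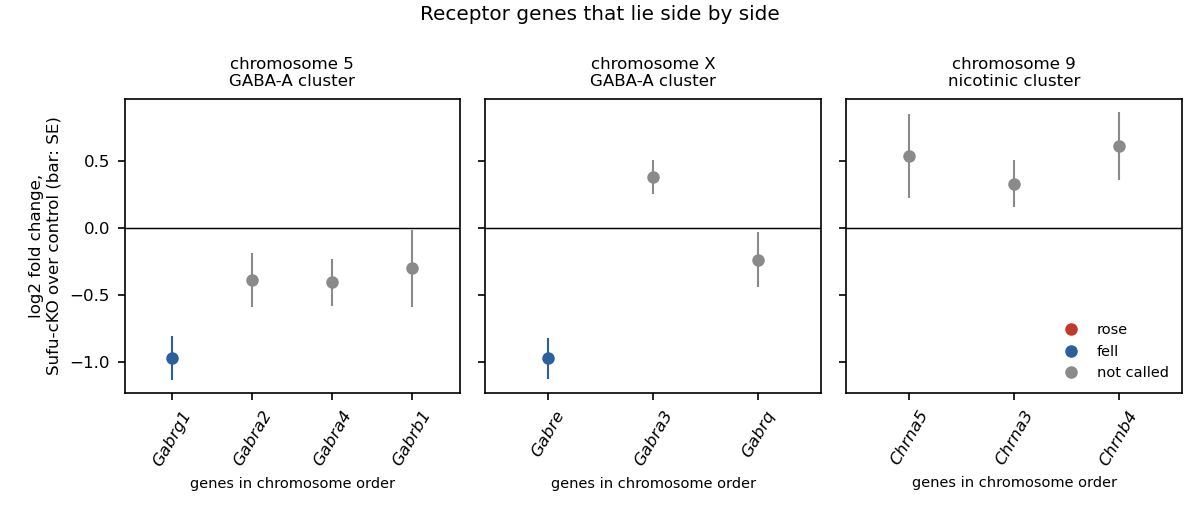
Log2 fold change (Sufu-cKO over control, bars 1 standard error) of the genes in GABA-A clusters on chromosomes 5 and X and in a nicotinic cluster on chromosome 9, in their order along each chromosome. The chromosome 5 genes are all below 0, from -0.97 to -0.30, whereas the chromosome X cluster holds Gabre at -0.97 beside Gabra3 at 0.38.

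The GABA-B receptor is a dimer of the products of Gabbr1 and Gabbr2, the first of which binds GABA while the other couples to the G protein. Gabbr1 read 146, 144, 130 and 149 CPM in Sufu-cKO samples and 119, 118, 125 and 135 CPM in controls. The groups overlapped only through Mut_337 and Cont_370, and the gene was not called (log2 fold change 0.19, SE 0.06, adjusted p = 0.07702), though it was called without Cont_370 (log2 fold change 0.23, adjusted p = 0.04384). Gabbr2 was 1.56, 1.55, 1.93 and 1.55 CPM in Sufu-cKO samples and 1.06, 1.17, 1.07 and 1.52 CPM in controls. Its groups were apart by a small margin without a call (log2 fold change 0.44, SE 0.20, adjusted p = 0.2187). Per length, Gabbr2 made up 1.34% ± 0.243 of the pair in Sufu-cKO and 1.11% ± 0.134 in control.

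Of the glycine receptor genes only Glra2 and Glrb were tested, and neither was called. Glra2 encodes the alpha2 subunit of fetal glycine receptors and Glrb the beta subunit that binds the anchoring protein gephyrin. Glra2 was at 9.27, 12.4, 13.7 and 19.2 CPM in Sufu-cKO samples and 17.3, 14.0, 19.8 and 13.3 CPM in controls. Its samples overlapped broadly (log2 fold change -0.24, SE 0.21, adjusted p = 0.5811). Glrb was at 4.78 ± 0.259 RPKM in Sufu-cKO and 5.51 ± 0.394 RPKM in control (log2 fold change -0.20, SE 0.08, adjusted p = 0.1378). Glra1 and Glra4 were at 0 in all 8 samples.

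For the nicotinic acetylcholine receptor genes, 7 of 16 were tested and Chrna7 was called. Chrna7 (ENSMUSG00000030525, chr7:63098692-63212526) encodes alpha7, which can form a calcium-permeable channel from 1 kind of subunit. Its level was 7.75, 6.97, 7.74 and 7.33 CPM in Sufu-cKO samples, against 2.98, 4.34, 4.90 and 3.67 CPM in controls. The Sufu-cKO samples lay close together and all above the controls. Chrna7 rose 1.87-fold (log2 fold change 0.91, SE 0.16, adjusted p = 0.003044), a call kept in all 8 fits that left a sample out. Its share of the summed nicotinic RPKM was 14.2% ± 0.645 in Sufu-cKO and 9.33% ± 2.62 in control.

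Chrnb2, for the beta2 subunit of most brain nicotinic receptors, was the highest of the family at 4.78 ± 0.225 RPKM in Sufu-cKO and 4.86 ± 0.353 RPKM in control, with a log2 fold change of -0.02 (SE 0.07, adjusted p = 0.9013). Chrnb2 shares exonic bases with Adar on the opposite strand. The Chrnb2 level and the nicotinic sum are therefore uncertain where counting ignored strand. Chrna4, for alpha4, the usual partner of beta2, read 6.26, 5.07, 7.85 and 3.07 CPM in Sufu-cKO samples and 2.33, 1.20, 2.31 and 4.49 CPM in controls. Mut_340 and Cont_370 overlapped, and the gene was not called despite a log2 fold change of 1.10 (SE 0.39, adjusted p = 0.1219). It was called by DESeq2 (adjusted p = 0.01634) and without Cont_370, where the log2 fold change was 1.502 (adjusted p = 0.02188). The neighbouring genes Chrna5, Chrna3 and Chrnb4, which lie within 67.7 kb on chromosome 9, had log2 fold changes of 0.54, 0.33 and 0.61, and none was called with all samples. Without Cont_294, Chrnb4 was called (log2 fold change 0.89, adjusted p = 0.03059). Chrnb1, whose product is part of the muscle receptor, had a log2 fold change of -0.46 and was not called.

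The muscarinic receptor genes were low, and of the 3 tested, 1 rose and 1 fell. Chrm2 (ENSMUSG00000045613, chr6:36388084-36528414) encodes M2, which couples to inhibitory G proteins. It was at 1.22, 0.774, 1.38 and 1.52 CPM in Sufu-cKO samples, against 0.309, 0.729, 0.632 and 0.649 CPM in controls. The margin between Mut_317 and Cont_345 was small, and the log2 fold change was 1.07 (SE 0.30, adjusted p = 0.04046). The call held in 1 of 8 fits without a sample, the one without Mut_317, and the adjusted p reached 0.109; with limma-voom it was 0.0514. Chrm3 (ENSMUSG00000046159, chr13:9875486-10360844) encodes M3, which couples to the Gq pathway. Its values were 1.52, 1.62, 0.938 and 1.16 CPM in Sufu-cKO samples, against 2.26, 2.52, 2.43 and 2.51 CPM in controls. The groups were apart, with controls close together, and Chrm3 fell by 0.89 on the log2 scale (SE 0.20, adjusted p = 0.01466). Per length, Chrm3 made up 25.0% ± 4.41 of the muscarinic sum in Sufu-cKO and 40.3% ± 6.44 in control, and Chrm2 24.7% ± 7.53 in Sufu-cKO and 9.84% ± 3.54 in control. The muscarinic sum includes 2 genes too low to test. Chrm1 and Chrm2 share exonic bases with genes on the opposite strand, so the sum and these shares are uncertain where counting ignored strand. Chrm1 had a log2 fold change of -0.05 and was not called.

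The 24 receptor genes that were not tested include Chrna9 and Chrna10 of hair cells, Grm6 of retinal bipolar cells, and Chrna1, Chrnd, Chrne and Chrng of muscle. There were 6 with no count in any sample: Gabra6, Glra1, Glra4, Chrna2, Chrnd and Chrna9. A count of 0 allows up to 3 counts, or 0.086 to 0.109 CPM depending on the library, and this limit covers counting error only. Another 17 had at most 22 counts in any library. Gabrp, for the pi subunit, was the exception and is named because of its values: it had 0, 0, 136 and 58 counts in Sufu-cKO samples and 0, 1, 0 and 0 counts in controls. Nearly all of its reads lay in the Sufu-cKO samples Mut_337 and Mut_340, the other 2 samples of that genotype had none, and Cont_345 had a single one.

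Genes that make, move or anchor the transmitters and receptors were read beside them. As background for the list counts here and below, 11.0% of all 15382 tested genes were called, 5.34% as higher and 5.64% as lower. Their median log2 fold change was 0.0071, and no list was tested as a set. Of 10 genes of glutamate synthesis and transport, 3 rose, all of glutamate uptake or its conversion to glutamine, and the list's median log2 fold change was 0.01. The uptake genes Slc1a1 and Slc1a6 had log2 fold changes of -0.19 and 0.20 and were not called. Slc1a3 was also counted among the progenitor markers above. Slc1a3, the glutamate transporter of radial glia, was at 286 ± 36.7 CPM in Sufu-cKO and 113 ± 8.16 CPM in control (log2 fold change 1.34, SE 0.09, adjusted p = 2.885e-06). Slc1a2, the other main glial transporter, was at 76.9 ± 14.2 CPM in Sufu-cKO and 36.8 ± 5.10 CPM in control (log2 fold change 1.06, SE 0.14, adjusted p = 0.0007611). Glul, glutamine synthetase, was at 180 ± 5.67 CPM in Sufu-cKO and 158 ± 4.85 CPM in control, and its call held only without Mut_295 or Mut_317 among the 8 fits that left a sample out (adjusted p up to 0.113 in the others). Among 29 tested auxiliary subunits and scaffolds of glutamate receptors, 2 rose (Cacng5 and Cbln2) and 2 fell (Cacng4 and Dlg1), with a median of 0.05. Cacng5, an AMPA receptor auxiliary subunit, was at 2.50 ± 1.02 CPM in Sufu-cKO and 0.888 ± 0.346 CPM in control (log2 fold change 1.47, SE 0.34, adjusted p = 0.0152), and lost its call without Cont_345 (adjusted p = 0.0544). Cbln2, a cerebellin, was called only without Cont_370 among those fits, and Dlg1, the SAP97 scaffold, only without Mut_317 or Cont_365. Cacng4, another AMPA auxiliary subunit, lost its call without Mut_337, Cont_345, Cont_365 or Cont_370. For these 3 genes the adjusted p reached 0.129, 0.110 and 0.0627, in the order named.

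On the inhibitory side, 10 genes of GABA and glycine synthesis and transport and of chloride transport were tested, and their median log2 fold change was 0.43. Gad1, Gad2 and Slc32a1 of this list were also counted among the GABAergic markers above. Their log2 fold changes were 0.98 (SE 0.86), 1.09 (SE 0.85) and 0.49 (SE 0.64), and none was called. Slc6a11, a glial GABA transporter, rose (5.48 ± 1.44 CPM in Sufu-cKO and 2.83 ± 0.585 CPM in control, adjusted p = 0.01248). Slc6a9, a glycine transporter, fell (8.84 ± 1.52 CPM in Sufu-cKO and 12.8 ± 0.787 CPM in control, adjusted p = 0.01898). Of 11 tested genes for clustering and assembly of GABA-A and glycine receptors, 3 rose and none fell, with a median of 0.12. Lhfpl4, a partner that holds GABA-A receptors at synapses, had a log2 fold change of 0.32 (SE 0.06, adjusted p = 0.005684), and Nlgn2, the neuroligin of inhibitory synapses, one of 0.29 (SE 0.07, adjusted p = 0.01682). Slc6a9 and Nlgn2 both lost their calls without Mut_317, Cont_345 or Cont_365, at an adjusted p of up to 0.0582 for Slc6a9 and 0.0594 for Nlgn2.

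Of 8 tested genes for acetylcholine synthesis and breakdown and for receptor assembly, 3 rose and none fell, with a median of 0.27. Lypd1, which binds nicotinic receptors and dampens them, had the largest change, with 20.4 ± 5.10 CPM in Sufu-cKO and 3.52 ± 0.377 CPM in control (log2 fold change 2.53, SE 0.18, adjusted p = 4.306e-06). Ric3, a chaperone of alpha7 receptors, was at 53.1 ± 4.85 CPM in Sufu-cKO and 37.0 ± 3.32 CPM in control (log2 fold change 0.52, SE 0.08, adjusted p = 0.001709). Rapsn, which clusters muscle nicotinic receptors, was at 1.65 ± 0.491 CPM in Sufu-cKO and 0.683 ± 0.175 CPM in control (log2 fold change 1.26, SE 0.27, adjusted p = 0.01123).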

How the data were processed

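Dorsal forebrain RNA of 4 Sufu-cKO and 4 control samples was sequenced from TruSeq stranded mRNA libraries, per the labels' protocols. The submitters' processing notes name STAR 2.4.2a and GRCm38. How reads were counted, with which strand setting and annotation release, is not given in any source used here. Of the receptor genes reported, 17 share exonic bases with a gene on the opposite strand, and their values are uncertain for that reason. They include the called genes Chrm2 and Grin2b and the uncalled genes Chrnb2, Grin1 and Grm2. The authors deposited raw counts per gene, which were tested here. Their second deposited table holds a normalised signal per sample (counts divided by 1 size factor per sample), the authors' fold change as a ratio, and their p-values. Value columns that matched no sample numbered 0.

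Genes were filtered with filterByExpr (minimum count 10, minimum total 15), scaled with TMM, and compared with the 2-sided quasi-likelihood F-test of edgeR 4.0.16 in R 4.3.3, with robust estimation and Benjamini-Hochberg adjustment over all 15382 tested genes. Calls were made at an adjusted p under 0.05. The SE of a log2 fold change is its size over the square root of the F statistic. CPM are per 1000000 TMM-scaled counts, and RPKM divide them by merged exon length in GENCODE M21. The fit was first tested on simulated data. Alternatives were RLE scaling, other filters, DESeq2 1.42.0, limma-voom (limma 3.58.1), no robust estimation, and leaving out each sample.

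Members and gene lists were chosen with earlier results of these data known. Genes named were all called receptor genes, the member of each family with the highest RPKM, the tested member with the largest change, and up to 4 called genes per pathway list. Other genes named, such as Grik3, Gabrp, the cluster neighbours and the uncalled members given by fold change, were chosen after their values were seen. Of 11 genes in the acetylcholine list, 10 were found by symbol. Results of some genes are not reported here, although counts over families and lists include them.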

Additional observations from a re-analysis of the deposited data

Results flagged for a closer look

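In 4 of 90 groups of 4 samples, 1 sample lay far from the other 3 for its group's range; chance gives about 1 in 20. Gabbr2 was 1.93 CPM in Mut_337, against 1.55 to 1.56 CPM in the other Sufu-cKO samples. Grm3 was 1.37 CPM in Mut_317, against 1.92 to 1.97 CPM in the others. Grin1 was 2.46 CPM in Mut_337, where the others were at 3.17 to 3.18 CPM, and 1.72 CPM in Cont_294, where the others were at 2.4 to 2.44 CPM.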

How the results depend on the processing

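The number of receptor genes called was 14 with RLE scaling, limma-voom or no robust estimation, 13 with no filter, 11 with at least 1 CPM in 4 samples, and 18 with DESeq2. Leaving out 1 sample at a time gave 9 to 15 receptor genes, 6 to 11 of them higher and 3 to 5 lower in Sufu-cKO, and 1079 to 1836 genes in all, 537 to 939 higher and 542 to 897 lower. The lowest number, 9, came without Cont_345 (6 higher), and 6 higher were also called without Mut_337 or Mut_340. Among the genes reported, Gria1, Grik4, Grin3a, Gabre, Gabrg1, Chrna7 and Chrm3 kept their calls in all 8 of those fits. Over all alternatives for the named genes, 612 of the values stayed on their side of the threshold with the same sign, 62 lost a call, 7 gained one and 14 changed sign. The sign changes were in uncalled genes: Gabra5 reached 0.083 with limma-voom, and leaving out samples gave -0.27 to 0.24 for Gabra5, -0.23 to 0.0105 for Gria2, -0.14 to 0.0899 for Grid1, -0.10 to 0.0853 for Grik5 and -0.0578 to 0.016 for Chrnb2. The cause was not tested. No paired analysis was possible because the samples of the 2 groups share no replicate numbers. Low counts limit Grm4, Gabrg3 and Chrm2, which did not pass the filter of at least 1 CPM in 4 samples. These genes passed the main filter through the Sufu-cKO samples, where they were higher.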

Other observations

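In the authors' deposited table, 13 of the 73 receptor genes had a false discovery rate under 0.05, and 12 of these were also called here, which is 92.3% of the deposited calls and 85.7% of the 14 calls here. Grm2 passed in the authors' deposited table and was not called here, while Grin2b and Grm4 were called here and did not pass there.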
